A study of Drosophila melanogaster with 9 samples.

Results

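The 10 genes described here encode proteins of the basolateral membrane and the septate junction of Drosophila epithelia: scrib, dlg1, l(2)gl, yrt, cora, Nrx-IV, Atpalpha, par-1, 14-3-3zeta and 14-3-3epsilon. They were chosen by symbol, and each symbol matched 1 of the 15334 genes in the deposited count matrix. RNA was sequenced from whole embryos of 3 groups, with 3 libraries per group. The obe2/Df embryos were the progeny of females that carried the obe2 allele over a deficiency (Df), and the obe1/obe2 embryos were the progeny of females that carried the alleles obe1 and obe2. In both cases the fathers were obe2/+, so these embryos share an obe-mutant mother but can differ in their own genotype. The OreR embryos came from the wild-type strain Oregon-R. The gene obe (CG5205, obelus) encodes a Ski2-family RNA helicase, and the study asks about its role in the alternative splicing of crumbs (crb), an apical polarity gene. The labels give neither the lesions nor the extent of the deficiency. Each library was made from about 50 embryos aged 3 h, picked by hand at late stage 5 or early stage 6, when the blastoderm has formed its first epithelium.

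Epithelial cells keep distinct apical and basolateral surfaces. On the basolateral side the Scribble module, made of Scrib, Dlg1 and L(2)gl, restricts the apical Crumbs and aPKC complexes, and a second group of Yrt, Cora, Nrx-IV and the sodium pump acts against Crumbs later in embryogenesis. Most proteins of that second group are also parts of the septate junction, the paracellular barrier of insect epithelia, which forms well after the stage sampled here. Par-1 is a basolateral kinase that phosphorylates Bazooka, and 14-3-3 proteins bind the phosphorylated form. Mothers load much of the RNA of a blastoderm embryo into the egg, and the embryo's own genes are switched on at about this stage.

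Reads recovered from the normalized counts numbered 61007517 to 123121486 per library, and the 10 most abundant genes took 4.54% to 5.34% of them. The level of obe was 182.9 to 276.7 normalized counts in obe2/Df embryos, 672 to 821.3 in obe1/obe2 embryos and 5850.1 to 8561.8 in OreR embryos, so the groups did not overlap. The libraries also differed in early zygotic RNA, and whether this reflects the time of collection was not tested. A list of 17 early zygotic genes, which the embryo itself switches on and which include nullo, ftz and sna, summed to 20550.3 to 40275 normalized counts in obe2/Df embryos, to 121127 to 281799 in obe1/obe2 embryos and to 203317 to 309776 in OreR embryos. slam alone gave 19809 to 25434 of that in obe2/Df, 58894 to 125516 in obe1/obe2 and 88424 to 127058 in OreR embryos, so in obe2/Df embryos it carried most of the sum. All 17 were called lower in obe2/Df embryos against OreR, 0 of 17 were called in obe1/obe2 embryos, and none was at 0 throughout a group. The obe1/obe2 test shared its estimate of the spread with the widely spread obe2/Df values, so its 0 calls do not show an unchanged list. Replicate 1 of obe2/Df stood apart within its group: its mean over the list was -7.47 on the log2 scale relative to the OreR mean, against -2.85 and -3.54 in replicates 2 and 3. Of 10 maternal genes whose RNA is cleared in the embryo, 4 were called higher and 3 lower in obe2/Df embryos, and 2 higher and 3 lower in obe1/obe2 embryos, both against OreR. Summed levels of 5 muscle genes and of 6 yolk and eggshell genes were at most 62.1 and 46.2 normalized counts in any library. Hemocyte markers (4 genes) summed to 14997 to 19760.2 in obe2/Df, 9177 to 13849 in obe1/obe2 and 14300.1 to 14970.5 in OreR embryos, of which crq alone gave 14989 to 19393, 9134 to 13844 and 14274 to 14954. NimC1 was at 0 in all libraries, and Hml lay between 0 and 338.6 in obe2/Df, 2.87 and 29.3 in obe1/obe2 and 8.46 and 23.5 in OreR embryos. Neuronal markers (6 genes) summed to 7129 to 7926 in obe2/Df, 8102 to 9193 in obe1/obe2 and 8029 to 8224 in OreR embryos, mostly from Syx1A. Of these, cpx lay at 38.9 to 53.9 in obe2/Df and 74.7 to 95.2 in obe1/obe2, against 2.35 to 6.77 in OreR embryos, and 1 neuronal gene of 3 tested was called, higher in each obe genotype. Markers of trachea and cuticle (5 genes) summed to 506 to 1059.9 in obe2/Df, 232 to 338 in obe1/obe2 and 713 to 1087 in OreR embryos. The obe1/obe2 libraries did not overlap the others, and 1 of 3 tested genes was called lower there against OreR (median log2 fold change -1.80). Glial markers (4 genes) summed to 405 to 785, 449 to 603 and 502 to 837 in the same order of groups, with 0 of 4 called. The part of these lists in the results below was not tested.

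All 10 genes passed the minimum of 10 normalized counts on average and were among the 8346 genes tested. In obe2/Df embryos against OreR, dlg1 and l(2)gl rose and cora, par-1, 14-3-3zeta and 14-3-3epsilon fell, which is 6 of the 10. Over all tested genes 60.5% were called in that comparison, 31.0% higher and 29.5% lower. In obe1/obe2 embryos against OreR, dlg1 and l(2)gl rose and cora fell, which is 3 of the 10, beside 22.6% of all tested genes (11.0% higher and 11.7% lower). Between the obe genotypes, Atpalpha and Nrx-IV were higher and cora and 14-3-3zeta lower in obe2/Df embryos, which is 4 of the 10, beside 44.7% of all tested genes (25.2% higher and 19.5% lower). The members' shares therefore lay close to those of the genes at large in every comparison. A call here means a Benjamini-Hochberg adjusted p under 0.05 in limma over all tested genes. The comparisons with OreR share its 3 libraries, so they are not independent of each other. In whole embryos, fewer cells of a type and less RNA per cell cannot be told apart.

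The size of change set cora apart from the other members. The median log2 fold change of the 10 genes was -0.09 in obe2/Df and -0.21 in obe1/obe2 embryos against OreR, where the medians of all tested genes were -0.01 and -0.07. The median size of change, leaving out its sign, was 0.35 in obe2/Df and 0.30 in obe1/obe2 embryos, against 0.50 and 0.28 for all tested genes. The fall of cora in obe2/Df embryos was larger than the change of 93.6% of all tested genes.

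**Figure D1:**
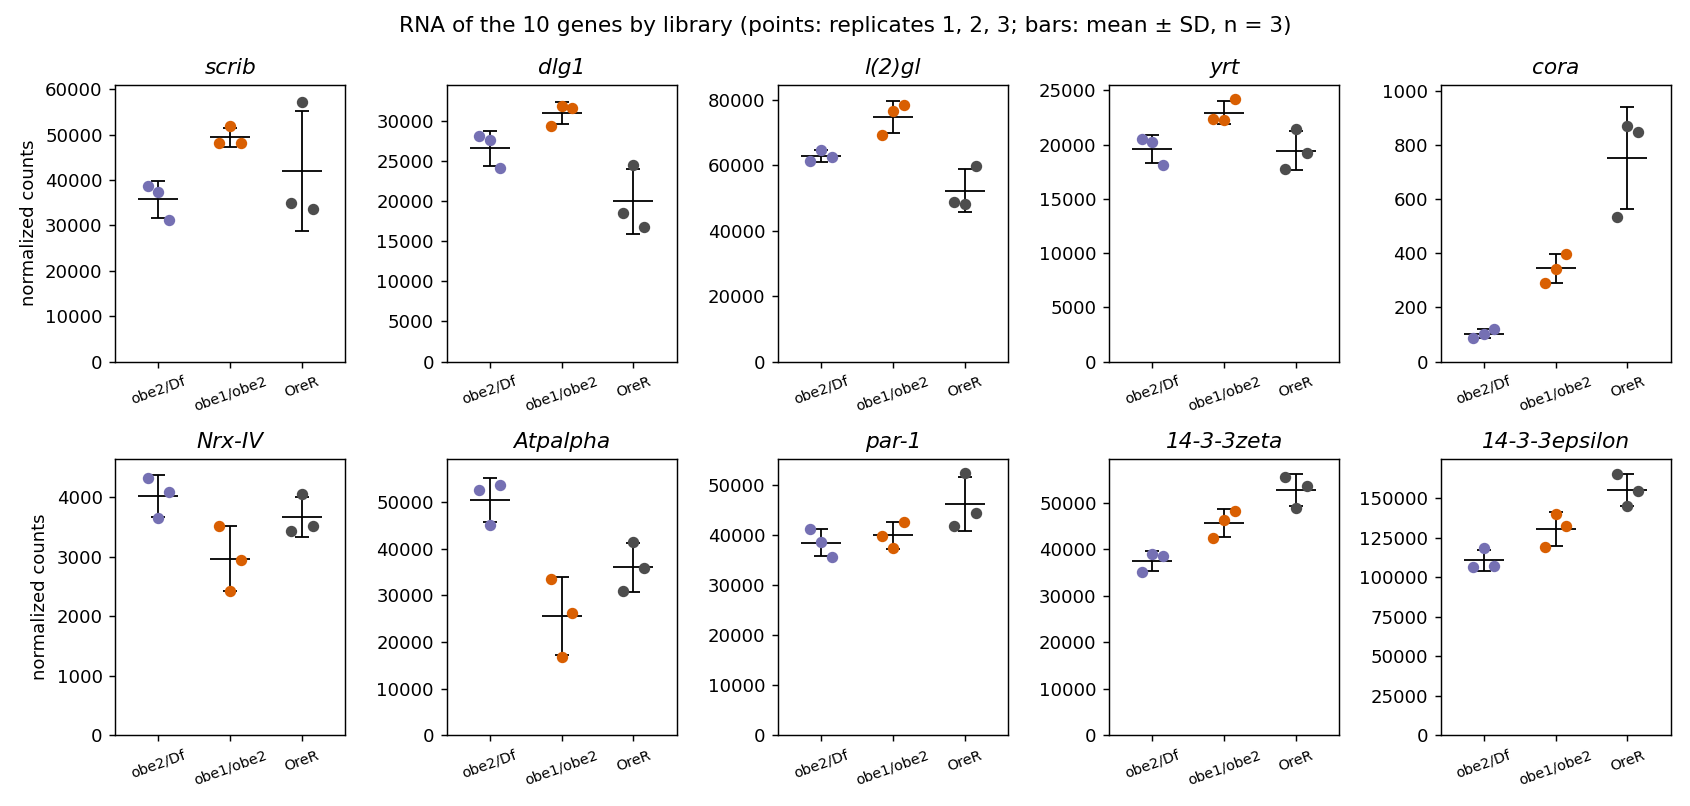
Normalized counts (linear axes from 0) of the 10 genes in each library of obe2/Df, obe1/obe2 and OreR embryos; points are single libraries, and bars are the mean ± SD of 3. The cora points of the 3 groups lie at 88.5 to 120.2, 292 to 398 and 535.0 to 871 normalized counts and do not overlap; the largest ratio of group means among the other 9 genes is 1.97, for Atpalpha in obe2/Df over obe1/obe2 embryos.

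The members differed far more from each other than between genotypes. Levels per kilobase of exon are given here as normalized counts divided by the exonic length in the reference annotation, whose build differs from the one the authors used. In OreR embryos the order ran from 14-3-3epsilon at 45993 ± 3015 per kb (SD, n = 3), through 14-3-3zeta at 14492 ± 951 and l(2)gl at 8737 ± 1099.7, to Atpalpha at 5399 ± 793, yrt at 4358 ± 408 and par-1 at 3633 ± 428. Below these lay scrib at 2439 ± 769.8 per kb, dlg1 at 1735 ± 353, Nrx-IV at 715 ± 65.4 and cora at 124 ± 31.2. The ranges of scrib and dlg1 overlapped, as did those of scrib and par-1, of par-1 and yrt, and of yrt and Atpalpha, so these neighbours were not ordered beyond their spread. In OreR embryos 14-3-3epsilon lay above 98.6% of the tested genes per kb, and cora above 23.1%. The positions at both ends were the same in the other groups, with 14-3-3epsilon first and cora last. Together the 10 genes took 0.484% to 0.533% of the reads of a library.

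In the Scribble module, dlg1 and l(2)gl rose in both obe genotypes against OreR. scrib did not pass the test in any comparison, but its interval in obe1/obe2 embryos, given below, holds the values of both other genes. dlg1 encodes Discs large, a scaffold protein of the MAGUK family and a neoplastic tumour suppressor. It had 28120.2, 27595 and 24124 normalized counts in obe2/Df embryos, 29380.2, 31889 and 31628 in obe1/obe2 embryos, and 18577, 24529 and 16778 in OreR embryos (replicates 1 to 3, here and below). Every obe1/obe2 library lay above every OreR library, whereas obe2/Df replicate 3 fell just below OreR replicate 2. In limma the log2 fold change was 0.65 ± 0.13 (SE, adjusted p = 0.00818) in obe1/obe2 and 0.43 ± 0.13 (adjusted p = 0.02) in obe2/Df embryos, both against OreR. The obe1/obe2 call held in each of 9 fits that left out 1 library. The obe2/Df call was lost without obe2/Df replicate 1 or 2 or OreR replicate 1 or 3, with adjusted p of 0.0593, 0.0567, 0.065 and 0.0689 in that order. Between the obe genotypes the difference of -0.22 (95% interval -0.52 to 0.08) did not pass, with an adjusted p of 0.198 in limma.

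l(2)gl encodes Lethal giant larvae, a WD40-repeat protein that is phosphorylated by aPKC and held off the apical side. It had 61200.3, 64675 and 62701 normalized counts in obe2/Df embryos, 69151, 76581 and 78477 in obe1/obe2 embryos, and 48953, 48067 and 59886 in OreR embryos. The 3 groups did not overlap, with obe1/obe2 embryos highest and OreR embryos lowest. The log2 fold change in limma was 0.52 ± 0.09 (SE, adjusted p = 0.00501) in obe1/obe2 and 0.27 ± 0.09 (adjusted p = 0.0328) in obe2/Df embryos against OreR. The obe1/obe2 call held without any 1 library. The obe2/Df call held in 4 of the 9 fits that left out a library and was lost without any 1 obe2/Df library (adjusted p 0.0571, 0.0893 and 0.0694 without replicates 1, 2 and 3) or without OreR replicate 1 (0.103) or 2 (0.1001). The difference between the obe genotypes was -0.25 (95% interval -0.46 to -0.03), with an adjusted p of 0.0587 in limma. It was called without obe1/obe2 replicate 1 (adjusted p = 0.0398) or without OreR replicate 3 (adjusted p = 0.0258), which enters only through the shared spread.

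scrib encodes the leucine-rich repeat and PDZ scaffold that gives the module its name. It had 38781, 37383 and 31139 normalized counts in obe2/Df embryos, 48113, 51901 and 48252 in obe1/obe2 embryos, and 34982, 57214 and 33647 in OreR embryos. OreR replicate 2 stood above every other library, and the remaining OreR libraries lay among those of obe2/Df, below those of obe1/obe2. The log2 fold change in limma was -0.19 (95% interval -0.62 to 0.23, adjusted p = 0.388) in obe2/Df and 0.28 (-0.14 to 0.70, adjusted p = 0.309) in obe1/obe2 embryos against OreR. The value for obe2/Df against obe1/obe2 was -0.47 (-0.90 to -0.05, adjusted p = 0.067). Without OreR replicate 2 the values were 0.05 (adjusted p = 0.664) in obe2/Df, 0.53 (adjusted p = 0.0111) in obe1/obe2 and -0.47 (adjusted p = 0.00709) between the obe genotypes. Leaving out that library thus turned the sign of the obe2/Df value and called the other values. The difference between the obe genotypes holds no OreR value, so it stayed at -0.47 and was called only through the change in the shared spread. The difference between the obe genotypes was called in 5 of 20 alternative settings, of which this was the only left-out library.

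The ratio of dlg1 to scrib within a library separated all 3 groups. It was 0.725, 0.738 and 0.775 in obe2/Df embryos, 0.611, 0.614 and 0.655 in obe1/obe2 embryos, and 0.531, 0.429 and 0.499 in OreR embryos. Means were 0.746 ± 0.0257, 0.627 ± 0.0249 and 0.486 ± 0.0523 in that order (SD, n = 3 each). A two-sided exact permutation test gave p = 0.1 for each of the 3 pairs of groups, the smallest value that 3 against 3 libraries allow. OreR replicate 2, which was high in scrib, was high in dlg1 too and had the lowest ratio of the 9 libraries. The ratio of l(2)gl to scrib overlapped between groups, with means of 1.77 ± 0.22 in obe2/Df, 1.51 ± 0.10 in obe1/obe2 and 1.34 ± 0.47 in OreR embryos. These were 5 ratios over 3 pairs of groups, and their p-values were not adjusted because none could reach 0.05.

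**Figure D2:**
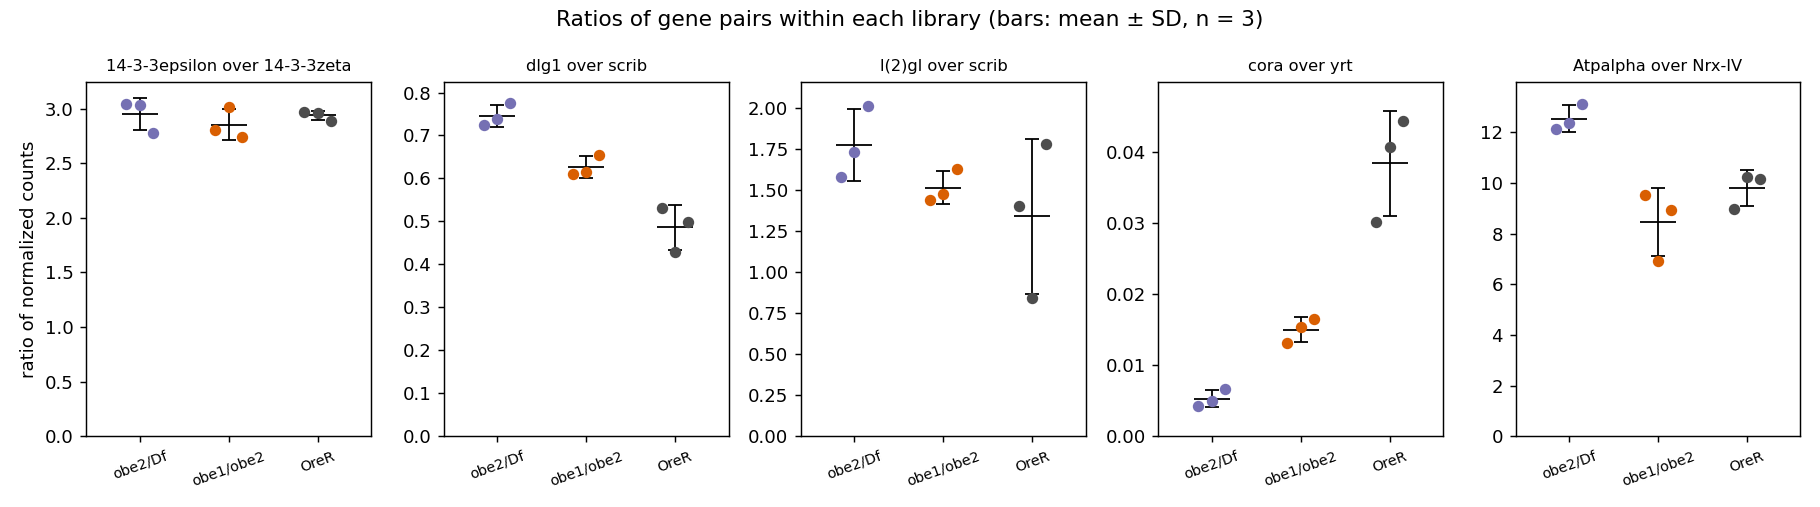
Ratio of the normalized counts of 5 gene pairs in each library (linear axes from 0) for obe2/Df, obe1/obe2 and OreR embryos; points are libraries, and bars are the mean ± SD of 3. The dlg1 to scrib and cora to yrt ratios separate the 3 groups, whereas the ratio of the 14-3-3 genes stays between 2.74 and 3.04 in all 9 libraries.

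cora showed the largest fall of the 10 genes in both comparisons with OreR, and yrt, from the same later basolateral group, did not pass the test in any comparison. cora encodes Coracle, a FERM-domain protein that anchors septate junction proteins. It had 88.5, 100.2 and 120.2 normalized counts in obe2/Df embryos, 292, 343 and 398 in obe1/obe2 embryos, and 535.0, 871 and 850.1 in OreR embryos. The obe2/Df values rested on 136, 78 and 142 recovered reads, so cora was scarce but counted in every library. The 3 groups did not overlap, with obe2/Df lowest and OreR highest. In limma cora fell by 2.83 ± 0.25 on the log2 scale in obe2/Df embryos against OreR (SE, 95% interval -3.39 to -2.27, adjusted p = 8.2e-05) and by 1.10 ± 0.25 in obe1/obe2 embryos against OreR (-1.66 to -0.54, adjusted p = 0.013). It also differed between obe2/Df and obe1/obe2 embryos, with a log2 fold change of -1.73 ± 0.25 (-2.29 to -1.17, adjusted p = 0.00231). The obe2/Df values held without any 1 library, at -3.06 to -2.71 against OreR, and without obe2/Df replicate 1, the library lowest in early zygotic RNA, the value was -2.73. The obe1/obe2 call was lost without OreR replicate 3, with an adjusted p of 0.0505 at -0.996.

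The early zygotic list moved with cora in the obe2/Df comparison, with a median log2 fold change of -4.57 over its 17 genes, and its part in the fall of cora was not tested. In obe1/obe2 embryos against OreR, cora was called lower, and the list had 0 calls and a median of -0.48. The shared estimate of the spread took in the wide obe2/Df range of these genes, so the 0 calls do not show an unchanged list. Relative to OreR on the log2 scale, the list means of obe1/obe2 replicates 1 to 3 were -1.10, 0.24 and -0.82. The cora values there were -1.33, -1.09 and -0.88. In obe2/Df replicates 1 to 3 the list means were -7.47, -2.85 and -3.54, with cora at -3.04, -2.86 and -2.60.

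yrt encodes Yurt, a FERM protein that binds the tail of Crumbs and restrains its activity. It had 20518, 20236 and 18153 normalized counts in obe2/Df embryos, 22380.0, 22299.6 and 24189.8 in obe1/obe2 embryos, and 17775, 21392 and 19196 in OreR embryos. The obe1/obe2 libraries lay above all others, and the obe2/Df and OreR libraries overlapped. The log2 fold change in limma was 0.02 (95% interval -0.18 to 0.21, adjusted p = 0.884) in obe2/Df and 0.24 (0.05 to 0.43, adjusted p = 0.0705) in obe1/obe2 embryos against OreR. For obe2/Df against obe1/obe2 it was -0.23 (-0.42 to -0.03, adjusted p = 0.0554). Without OreR replicate 2, yrt was called higher in obe1/obe2 embryos (0.31, adjusted p = 0.032) and lower in obe2/Df than in obe1/obe2 embryos (adjusted p = 0.0375). That difference between the obe genotypes also passed without OreR replicate 1 (adjusted p = 0.0457). Both OreR libraries enter that difference only through the shared spread. The cora to yrt ratio was 0.0053 ± 0.0012 in obe2/Df, 0.015 ± 0.0017 in obe1/obe2 and 0.0384 ± 0.0074 in OreR embryos (SD, n = 3 each), with no overlap (two-sided exact permutation p = 0.1 for each pair, the smallest possible).

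Atpalpha and Nrx-IV, the remaining septate junction members, differed between the obe genotypes in the opposite direction to cora. Atpalpha encodes the catalytic alpha subunit of the sodium-potassium pump, which also has a structural role in the junction. It had 52536, 45056 and 53753 normalized counts in obe2/Df embryos, 33529.8, 16861 and 26285 in obe1/obe2 embryos, and 30896, 41482 and 35818 in OreR embryos. The obe2/Df libraries lay above all others, and the obe1/obe2 libraries spread over a range that overlapped OreR. In limma the difference between obe2/Df and obe1/obe2 was 1.03 ± 0.22 on the log2 scale (SE, 95% interval 0.52 to 1.54, adjusted p = 0.00702), and it held without any 1 library at 0.76 to 1.26. Against OreR neither obe genotype passed: the log2 fold change was 0.49 (-0.02 to 0.9996, adjusted p = 0.0861) in obe2/Df and -0.54 (-1.05 to -0.03, adjusted p = 0.115) in obe1/obe2 embryos. The obe2/Df value was called without obe1/obe2 replicate 1 (adjusted p = 0.0368) or 2 (0.0149), which enter through the shared spread. The obe1/obe2 value was called when obe1/obe2 replicate 1 was left out (-0.77, adjusted p = 0.022), and it was -0.27 when the lowest library, replicate 2, was left out.

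Nrx-IV encodes Neurexin IV, a transmembrane protein whose tail binds Coracle. It had 4334, 3646 and 4095 normalized counts in obe2/Df embryos, 3519.7, 2431 and 2948 in obe1/obe2 embryos, and 3436, 4056 and 3522 in OreR embryos. The obe2/Df libraries lay above those of obe1/obe2, and each group overlapped OreR. The difference between obe2/Df and obe1/obe2 was 0.45 ± 0.14 on the log2 scale in limma (SE, 95% interval 0.13 to 0.78, adjusted p = 0.03). That call held in 5 of 9 fits that left out a library and was lost without obe1/obe2 replicate 2 (0.32, adjusted p = 0.085) or 3 (0.0725) or obe2/Df replicate 1 (0.0932) or 3 (0.0829). Against OreR the log2 fold change was 0.13 (-0.19 to 0.45, adjusted p = 0.432) in obe2/Df and -0.32 (-0.64 to 0.002, adjusted p = 0.137) in obe1/obe2 embryos. The obe1/obe2 value was called without obe1/obe2 replicate 1 (-0.45, adjusted p = 0.0316). Replicate 2 of obe1/obe2 was the lowest of the 9 libraries for both Nrx-IV and Atpalpha, and had the lowest mean of its group over the maternal list (-0.48 against 0.02 and -0.32 on the log2 scale relative to OreR); the part of maternal RNA in these values was not tested. The Atpalpha to Nrx-IV ratio was 12.5 ± 0.526 in obe2/Df, 8.46 ± 1.35 in obe1/obe2 and 9.80 ± 0.697 in OreR embryos (SD, n = 3 each), and the obe2/Df libraries lay above both other groups (two-sided exact permutation p = 0.1, the smallest possible).

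Both 14-3-3 genes fell in obe2/Df embryos by similar amounts. These genes encode small dimeric adaptors that bind phosphorylated serine, including the site that Par-1 marks on Bazooka. 14-3-3zeta had 35036, 39055 and 38568 normalized counts in obe2/Df embryos, 42465, 46334 and 48349 in obe1/obe2 embryos, and 55661, 48905 and 53559 in OreR embryos. 14-3-3epsilon had 106438, 118302 and 107092 normalized counts in obe2/Df embryos, 118964, 139698 and 132539 in obe1/obe2 embryos, and 165037, 144742 and 154659 in OreR embryos. Neither gene had any overlap between groups, with obe2/Df lowest and OreR highest in both. In limma 14-3-3zeta fell by 0.49 ± 0.08 on the log2 scale in obe2/Df embryos against OreR (SE, adjusted p = 0.0013), and 14-3-3epsilon fell by 0.48 ± 0.09 (adjusted p = 0.00204). Both calls held without any 1 library. In obe1/obe2 embryos against OreR the values were -0.21 (95% interval -0.38 to -0.03, adjusted p = 0.0943) for 14-3-3zeta and -0.25 (-0.45 to -0.05, adjusted p = 0.072) for 14-3-3epsilon.

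The obe genotypes differed in 14-3-3zeta by -0.28 ± 0.08 (SE, limma adjusted p = 0.0192) and in 14-3-3epsilon by -0.24 ± 0.09 (adjusted p = 0.0542). The 14-3-3zeta call was lost without obe1/obe2 replicate 2 (adjusted p = 0.0555) or 3 (0.0709) or obe2/Df replicate 1 (0.0734), and 14-3-3epsilon was called without obe1/obe2 replicate 1 (adjusted p = 0.0284). The ratio of 14-3-3epsilon to 14-3-3zeta was 2.95 ± 0.148 in obe2/Df, 2.85 ± 0.144 in obe1/obe2 and 2.94 ± 0.0432 in OreR embryos (SD, n = 3 each), and the groups overlapped.

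par-1 encodes the basolateral serine-threonine kinase that keeps Bazooka out of the lateral membrane. It had 41069, 38600.5 and 35669 normalized counts in obe2/Df embryos, 39803, 37280.4 and 42593 in obe1/obe2 embryos, and 41842, 52234 and 44272 in OreR embryos. The obe2/Df libraries lay below those of OreR by a narrow margin and overlapped those of obe1/obe2. In limma par-1 fell by 0.26 ± 0.10 on the log2 scale in obe2/Df embryos against OreR (SE, adjusted p = 0.0454). That call held in 3 of 9 fits that left out a library. It was lost without obe2/Df replicate 2 (adjusted p = 0.0895) or 3 (0.139), obe1/obe2 replicate 1 (0.0556) or 3 (0.0541), or OreR replicate 2 (-0.17, 0.135) or 3 (0.0694). In obe1/obe2 embryos the value was -0.20 (95% interval -0.43 to 0.02, adjusted p = 0.164), and between the obe genotypes it was -0.05 (-0.27 to 0.17, adjusted p = 0.672). par-1 shares 806 exonic bases with mei-W68 and 193 with Tbcb, which is 6.35% and 1.52% of its exonic length in the reference annotation. The share of its reads that fall on these bases was not measured, so the effect on its count is unknown. The library kit does not mark strand.

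**Figure D3:**
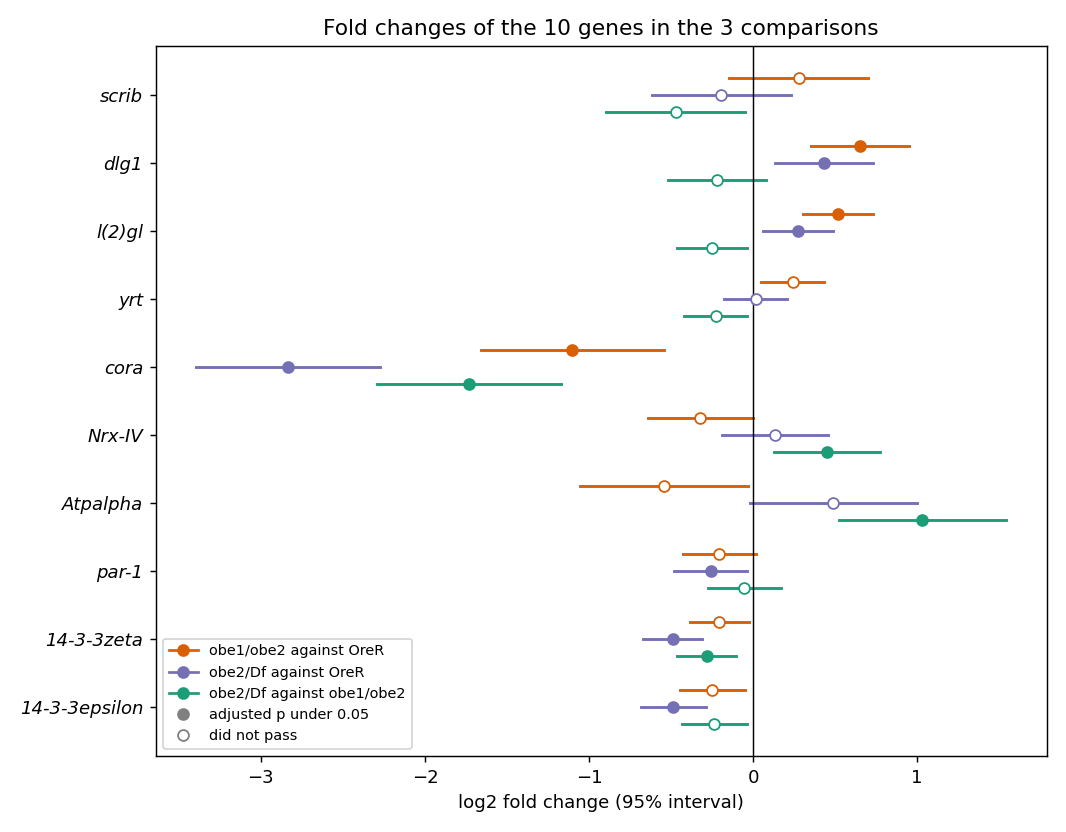
Log2 fold changes of the 10 genes (points) with 95% intervals (bars, not adjusted for multiple tests) for each obe genotype against OreR and for obe2/Df against obe1/obe2 (top to bottom within a gene: obe1/obe2, obe2/Df, their difference); filled points have a limma adjusted p under 0.05 over 8346 genes. cora lies at -1.10, -2.83 and -1.73, and Atpalpha at 1.03 between the obe genotypes.

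The groups were apart, with no overlap between libraries, for 6 of the 10 genes in obe2/Df against OreR, for 6 in obe1/obe2 against OreR and for 9 in obe2/Df against obe1/obe2. Over all tested genes the libraries were apart for 70.5%, 37.3% and 59.8% in the same order, beside called shares of 60.5%, 22.6% and 44.7%. Within groups, the coefficient of variation exceeded the median of all tested genes for 3 members in obe2/Df, 3 in obe1/obe2 and 6 in OreR embryos. The widest spreads were 32.7% for Atpalpha in obe1/obe2 embryos and 31.6% for scrib in OreR embryos.

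**Figure D4:**
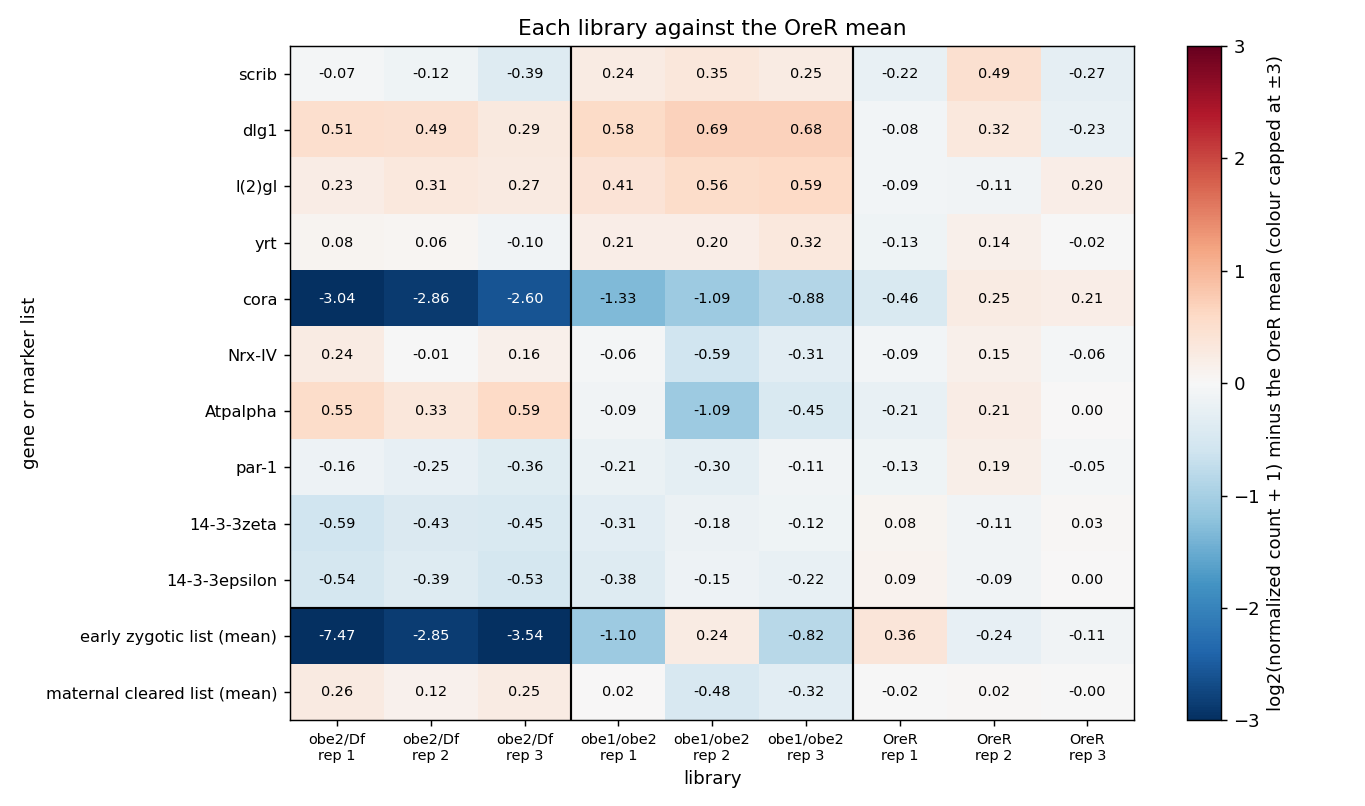
Each library's log2(normalized count + 1) minus the mean of the 3 OreR libraries, for the 10 genes and for the mean of the early zygotic (17 genes) and maternal (10 genes) lists; colour is capped at ±3 and the numbers are not. cora lies at -3.04 to -2.60 in obe2/Df and -1.33 to -0.88 in obe1/obe2 embryos, and the early zygotic mean at -7.47 to -2.85 and -1.10 to 0.24.

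In the authors' deposited tables of the comparisons with OreR, 1 of the 10 genes passed an adjusted p of 0.05. That was cora in obe2/Df embryos, with a fold of 0.137 and an adjusted p of 6.48e-07 in the authors' deposited table. The fold of cora in obe1/obe2 embryos was 0.458 in the authors' deposited table, with an adjusted p of 0.214. For the other members the authors' deposited tables give adjusted p of at least 0.704 in obe2/Df embryos and of 1 in obe1/obe2 embryos.

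Other genes of the septate junction were taken from a list of 23 genes, of which 20 were abundant enough to test. In obe2/Df embryos against OreR, 4 rose and 9 fell, and the median log2 fold change was -0.24. That is 13 of 20, beside 60.5% of all tested genes called (31.0% higher and 29.5% lower), a share near the list's own. Among those that fell was sinu, a claudin, which had 1032, 1415 and 1326 normalized counts in obe2/Df embryos, 1874, 2252 and 2533 in obe1/obe2 embryos, and 4398, 3701 and 3812 in OreR embryos. Its groups did not overlap. In limma sinu fell by 1.67 ± 0.16 (SE, adjusted p = 0.000119) in obe2/Df and by 0.85 ± 0.16 (adjusted p = 0.00575) in obe1/obe2 embryos against OreR, and it differed by -0.82 ± 0.16 (adjusted p = 0.00423) between obe2/Df and obe1/obe2 embryos. These calls held without any 1 library.

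bou, which encodes Boudin, a Ly6-type protein needed for septate junctions, had 54.7, 89.9 and 88.0 normalized counts in obe2/Df embryos, 61.3, 137 and 122 in obe1/obe2 embryos, and 414, 386 and 210.1 in OreR embryos. Both obe genotypes lay below OreR and overlapped each other. It fell by 2.08 ± 0.40 in obe2/Df (limma adjusted p = 0.00272) and by 1.67 ± 0.40 in obe1/obe2 embryos (adjusted p = 0.0177). The obe1/obe2 call was lost without OreR replicate 1 or 2, with an adjusted p of up to 0.0685. crim, which encodes the related Crimpled, went the other way, with 1205, 1264 and 1445 normalized counts in obe2/Df embryos, 690.2, 477 and 473 in obe1/obe2 embryos, and 622, 518 and 487 in OreR embryos. The obe2/Df libraries stood apart from all others, and the remaining groups overlapped. In limma crim rose by 1.27 ± 0.19 in obe2/Df embryos against OreR (adjusted p = 0.000878) and was as much higher than in obe1/obe2 embryos (1.27, adjusted p = 0.00238). mesh, a component of the smooth septate junction, had 0, 18.0 and 36.4 normalized counts in obe2/Df embryos, 92.9, 209.7 and 63.0 in obe1/obe2 embryos, and 335, 199.6 and 171 in OreR embryos, and was called lower in obe2/Df embryos against OreR (limma adjusted p = 0.00867).

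Lac, which encodes Lachesin, an immunoglobulin-domain protein of the junction, fell by 0.80 ± 0.24 in obe2/Df embryos against OreR (limma adjusted p = 0.0193), a call that was lost without OreR replicate 1 (adjusted p = 0.0697). In obe1/obe2 embryos against OreR, 1 of the 20 rose and 2 fell, with a median of -0.07, beside 22.6% of all tested genes called. The rise was in Nrg, which encodes Neuroglian, at 0.49 ± 0.11 (limma adjusted p = 0.0132, and 0.0526 without obe1/obe2 replicate 3), and the falls were in sinu and bou. Nrg was called higher in obe2/Df embryos against OreR too, by 0.45 ± 0.11 (limma adjusted p = 0.00751). Its difference between the obe genotypes, -0.04, did not pass (limma adjusted p = 0.802). Of the 20 genes, 5 were higher and 5 lower in obe2/Df than in obe1/obe2 embryos, with a median of -0.10, beside 44.7% of all tested genes called. Mcr, which encodes a macroglobulin-like junction protein, was the higher in obe2/Df embryos, by 0.77 ± 0.19 (limma adjusted p = 0.0114). nrv3, which encodes a beta subunit of the sodium-potassium pump, was higher by 1.07 ± 0.33 (adjusted p = 0.03) but was called in 5 of 9 fits that left out a library, with an adjusted p of up to 0.085 without obe1/obe2 replicate 3 or any 1 obe2/Df library. bark, Ssk and Tsp2A were below the minimum level and were not tested.

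Of 17 partners of the basolateral module, 5 rose and 4 fell in obe2/Df embryos against OreR, with a median of 0.14. That is 9 of 17, beside 60.5% of all tested genes called. The rises included CASK, which encodes a MAGUK scaffold, at 0.86 ± 0.15 (SE, limma adjusted p = 0.00178), raskol, which encodes a Ras GTPase-activating protein (0.97 ± 0.24, adjusted p = 0.00865), and Tomosyn, which encodes an L(2)gl-related SNARE-binding protein (0.98 ± 0.27, adjusted p = 0.0133). These 3 calls held without any 1 library. gukh, which encodes a binding partner of Dlg1 and Scrib, rose by 0.72 ± 0.22 (adjusted p = 0.0187), and beta-Spec, which encodes beta-spectrin, fell by 0.54 ± 0.18 (adjusted p = 0.0284). Both of these were called in 6 of 9 fits that left out a library: gukh was lost without obe2/Df replicate 1 or OreR replicate 1 or 3 (adjusted p up to 0.0662) and beta-Spec without obe2/Df replicate 2 or 3 or OreR replicate 2 (up to 0.0968).

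In obe1/obe2 embryos against OreR, 2 of the 17 rose and 0 fell, with a median of 0.05, beside 22.6% of all tested genes called. numb, which encodes a basally segregated Notch inhibitor, rose by 0.54 ± 0.12 (limma adjusted p = 0.0112) and kept its call without any 1 library. Lap1, which encodes a Scrib-related leucine-rich repeat protein, rose by 0.27 ± 0.07 (adjusted p = 0.0195), a call lost without obe1/obe2 replicate 3 or OreR replicate 1 (up to 0.0737). Set against obe1/obe2 embryos, 5 of the 17 were higher and 4 lower in obe2/Df embryos, with a median of -0.12, beside 44.7% of all tested genes called. CASK (0.61, limma adjusted p = 0.0116) and raskol (1.12, adjusted p = 0.00685) were higher in obe2/Df and kept their calls without any 1 library. Moe, which encodes Moesin, was higher by 0.55 (adjusted p = 0.0178) and lost its call without obe2/Df replicate 1 (0.0568). Khc-73, which encodes a kinesin that binds Dlg1 (0.60, adjusted p = 0.0413) and Tomosyn (0.80, adjusted p = 0.0407), both higher in obe2/Df, were each called in 2 of 9 such fits, those without obe1/obe2 replicate 1 or OreR replicate 2, with an adjusted p of up to 0.0982 and 0.132 in the others.

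The apical complexes, which oppose the basolateral proteins, were described from 8 genes. In obe2/Df embryos against OreR 1 rose and 4 fell, with a median of -0.01. That is 5 of 8, close to the 60.5% of all tested genes. sdt, which encodes Stardust, the MAGUK partner of Crumbs, had 1958, 2558 and 1848 normalized counts in obe2/Df embryos, 1746, 2091 and 1903 in obe1/obe2 embryos, and 4024, 4758 and 2806 in OreR embryos. Both obe genotypes lay below every OreR library and overlapped each other. sdt fell by 0.85 ± 0.20 in obe2/Df (SE, limma adjusted p = 0.00682) and by 0.98 ± 0.20 in obe1/obe2 embryos (adjusted p = 0.00867), and it was the 1 apical gene called in obe1/obe2 embryos, with 0 called higher there, beside 22.6% of all tested genes called. Both sdt calls held without any 1 library.

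The aPKC complex fell by small amounts in obe2/Df embryos against OreR: par-6 by 0.36 ± 0.05 (SE, limma adjusted p = 0.000965), aPKC by 0.29 ± 0.06 (adjusted p = 0.00366) and Cdc42, its GTPase, by 0.29 ± 0.08 (adjusted p = 0.0137). The Cdc42 call was lost without OreR replicate 1 (adjusted p = 0.0504). veli, which encodes a PDZ protein of the Crumbs complex, rose by 0.38 ± 0.14 (adjusted p = 0.0399), but this was called in 4 of 9 fits that left out a library and lost without obe1/obe2 replicate 3, obe2/Df replicate 1 or 3 or OreR replicate 1 or 2 (adjusted p up to 0.131). crb had 16872, 15304 and 15540.1 normalized counts in obe2/Df embryos, 12309, 9529 and 10561 in obe1/obe2 embryos, and 13084, 15309.6 and 11662 in OreR embryos. Its obe2/Df libraries lay above those of obe1/obe2, and both groups overlapped OreR. The obe genotypes differed in crb by 0.57 ± 0.12 (limma adjusted p = 0.0064), and of the 8 genes 2 were higher and 3 lower in obe2/Df, with a median of -0.03, beside 44.7% of all tested genes called.

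**Figure D5:**
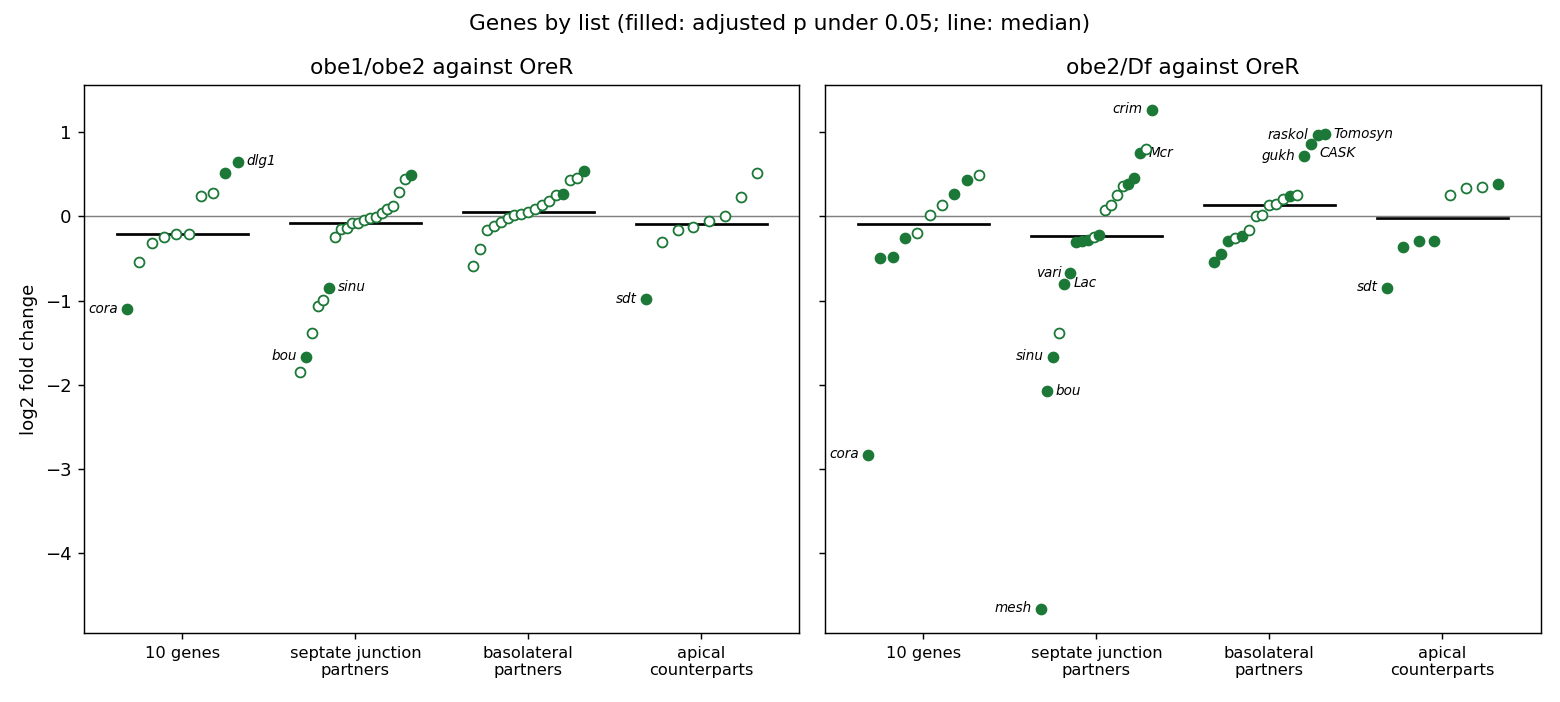
Log2 fold changes of the tested genes of each list (points, sorted; filled where the limma adjusted p is under 0.05) with the list's median (line) for obe1/obe2 and obe2/Df embryos, each against OreR. The medians lie between -0.24 and 0.14, and cora, sinu, bou and mesh lie lowest among the called genes of obe2/Df embryos.

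By Pearson correlation of log2 levels over the 9 libraries among 7177 genes, those most like scrib were Crag, hang and Fur1 (0.98 each). For dlg1 they were Ack (0.97), tio (0.97) and Magi (0.95), and for l(2)gl they were Wwox (0.99), spn-F (0.98) and CG16896 (0.98). These libraries fall into 3 genotypes, so the values describe a shared pattern over groups as much as over single libraries. tio, for example, averaged 93.2 normalized counts in obe2/Df embryos, 169 in obe1/obe2 embryos and 35.5 in OreR embryos, the same order of groups as dlg1.

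On the reference map 4 of the 10 genes, scrib, yrt, Atpalpha and 14-3-3epsilon, lie on chromosome arm 3R with obe, with 1688, 295, 746 and 397 genes between each of them and obe in that order. The extent of the deficiency is not given in the sources used here, so its part in their levels was not tested. Among these 4 genes, 14-3-3epsilon was called lower in obe2/Df embryos against OreR, and scrib, yrt and Atpalpha were not called.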

How the data were processed

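Whole-embryo total RNA went into unstranded TruSeq v2 libraries read on a HiSeq2500, per the labels. The deposited matrix holds signal values: whole reads per gene over a size factor of the library, per the file headers and the steps in the values. In the deposited tables the authors give a fold (ratio of group means) and a p-value with its adjusted form. The submitters' processing notes list STAR, Cuffdiff, Cufflinks 2.1.1 and build dm3, with no role for any. By its deposited name the matrix came from featureCounts, and by theirs the authors' comparisons with OreR came from DESeq. Annotation and read filters: not given in the sources used here.

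Division by the smallest value of a library returned whole reads for 100% of values (tolerance 0.001 of a read). A mean of 10 or more normalized counts left 8346 genes, which were tested in limma 3.58.1 (R 4.3.3), with a trend, as log2(normalized count + 1), in 1 fit of all 9 libraries. Folds on this scale understate the change of scarce genes. The groups share their estimate of the spread, so leaving out a library outside a comparison changes its p-values but not its fold change. Benjamini-Hochberg adjustment ran over every tested gene, with calls at 0.05 and intervals of 95%. The labels do not state that replicates are separate crosses. The p-values thus describe the spread among these libraries alone, and that spread may be technical. The members and lists were chosen with earlier results of these data known. All 10 members were named, with at most 5 called genes per list and comparison, obe, and the 3 genes most like each Scribble module gene among those with a mean of at least 50. The listed symbols mega and pck are 1 gene, counted once. The values given for Nrg, sinu, crim, bou, mesh, sdt and crb outside the comparison that named them were chosen after they were seen. baz, nrv1 and nrv2 were added outside that rule, after their values were seen. Exonic lengths, overlaps and gene order came from the reference annotation, with no positions, since its build differs. Alternatives covered the pseudocount (0.5, 5), the minimum (none, 50), TMM and quantile scaling, array weights, a replicate block, fits on the 6 libraries of a pair, the authors' tables, each library left out in turn, and edgeR 4.0.16 and DESeq2 1.42.0 on recovered reads. The limma and edgeR tests were tried on simulated data. Ratios were tested by exact permutation (scipy 1.17.1), and figures were drawn with matplotlib 3.10.9 in Python 3.11.15.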

Additional observations from a re-analysis of the deposited data

Results flagged for a closer look

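The obe genotypes differed from each other, by a direct test of obe2/Df against obe1/obe2 in the fit over all genes, in 4 of the 10 genes. cora was lower in obe2/Df, with a log2 fold change of -1.73 (limma adjusted p = 0.00231) and in 3 of 3 libraries, and its call held in all 20 alternative settings. Atpalpha was higher in obe2/Df by 1.03 (adjusted p = 0.00702) in 3 of 3 libraries, and its call too held in all 20 settings. Nrx-IV was higher in obe2/Df by 0.45 (adjusted p = 0.03) in 3 of 3 libraries, and was called in 14 of 20 settings. 14-3-3zeta was lower in obe2/Df, at -0.28 (adjusted p = 0.0192) in 3 of 3 libraries, and was called in 16 of 20 settings. Of all tested genes, 44.7% differed in this comparison.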

How the results depend on the processing

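Over the 10 genes and 3 comparisons, 541 of 620 alternative values kept their direction and their side of the threshold, 38 lost a call, 35 gained one and 6 turned round. The 6 were uncalled values near 0. scrib in obe2/Df embryos against OreR ranged from -0.33 to 0.054 and yrt from -0.048 to 0.086 when 1 library was left out, and quantile scaling gave -0.025 for Nrx-IV in obe2/Df against OreR and 0.094 for par-1 in obe2/Df against obe1/obe2. Of the 10 genes, 3 were called in obe1/obe2 against OreR, but 7 with array weights, 5 with DESeq2 and 0 in the authors' tables, with 2 to 5 when 1 library was left out. In obe2/Df against OreR 6 were called, but 1 in the authors' tables, and 3 to 7 with 1 library left out. In obe2/Df against obe1/obe2 4 were called, but 2 with quantile scaling, 8 with array weights and 8 with DESeq2, and 2 to 6 with 1 library left out. The causes were not tested. In the obe2/Df comparison with OreR cora passed in all 21 settings, and both 14-3-3 genes in 20 of 21, the exception being the authors' tables. Quantile scaling moved the share of higher genes among all called genes from 48.5% to 59.3% in obe1/obe2 against OreR and from 56.3% to 43.3% in obe2/Df against obe1/obe2, and no scaling moved the median of all genes by more than 0.0651 in size. Correlations of deviations ran from -0.20 to 0.52 for 9 same-numbered pairs of libraries and from -0.49 to 0.38 for 18 other pairs. Between the obe genotypes the same-numbered values were 0.52, 0.38 and 0.005 for replicates 1 to 3. A different-numbered pair there, obe1/obe2 replicate 2 with obe2/Df replicate 3, also reached 0.38. Whether the obe libraries were paired by number is therefore undecided. With a replicate block par-1 lost its call in obe2/Df against OreR (-0.26, adjusted p = 0.0824), scrib gained one between the obe genotypes (-0.47, adjusted p = 0.0459), and no other call among the 10 genes changed. For the partner lists, with calls higher and lower, septate junction counts in obe2/Df against OreR were 4 and 9, and 0 and 3 in the authors' tables. Basolateral counts there were 5 and 4, and 0 and 0. Apical counts there were 1 and 4, and 0 and 0. With 1 library left out, septate junction counts there were 3 to 5 and 4 to 9 and basolateral counts 3 to 6 and 3 to 5. Over all alternatives but those that leave out a library, septate junction counts in obe1/obe2 against OreR (1 and 2) were 0 to 3 and 2 to 4, basolateral counts (2 and 0) 0 to 4 and 0 to 2, and apical counts (0 and 1) 0 to 1 and 0 to 2. In obe2/Df against obe1/obe2 septate junction counts (5 and 5) were 4 to 6 and 4 to 8, basolateral counts (5 and 4) 3 to 5 and 3 to 8, and apical counts (2 and 3) 1 to 2 and 1 to 3. cora, at 78 to 142 reads in obe2/Df libraries, is the member whose values depth limits most.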
